A study of Homo sapiens with 24 samples.

Results

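The 10 genes described here encode the epidermal growth factor receptor family (EGFR, ERBB2, ERBB3 and ERBB4), 5 of its ligands (TGFA, BTC, HBEGF, EREG and NRG1) and its cytoplasmic inhibitor ERRFI1. They were taken by symbol from the deposited expression table, which has 25541 rows of single genes or merged loci for 24 libraries. Every symbol was found, and all 10 rows passed the filter on low values (10 or more scaled fragments in 3 libraries or more). The rows of 4 genes (BTC, EREG, HBEGF and ERRFI1) carried 1 symbol only, 5 rows were merged with non-coding RNAs, and ERBB3 was merged with a protein-coding neighbour, PA2G4.

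The cells were 2 derivatives of T47D, a human breast cancer line of luminal type: T47D-co, labelled positive for progesterone receptor (PR), and T47D-Y, labelled PR null. Cultures were first kept for 18 hours with 20 IU per ml of interferon-alpha (IFN) or with water. They were then given R5020, a synthetic progestin, at 10 nM, or ethanol (EtOH) as vehicle, for 6 hours. The groups, with 3 biological replicates each, were T47D-co with R5020 and IFN, with R5020 and water, with EtOH and IFN, and with EtOH and water, and T47D-Y with the same 4 treatments. The 2 derivatives differ in more than PR, so a difference between them cannot be told apart from other differences between the lines, and the labels do not say whether either is 1 clone.

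EGFR and its relatives are receptor tyrosine kinases that signal as homodimers or heterodimers. EGFR is bound by EGF, TGFA, BTC, HBEGF and EREG, and ERBB4 is bound by the neuregulins and also by BTC, HBEGF and EREG; ERBB3 is bound by neuregulins and has little kinase activity, and ERBB2 has no known ligand and acts as the preferred partner of the others. The ligands are made as membrane-bound precursors and released by ADAM proteases, dimers signal through RAS and ERK and through PI3 kinase and AKT, and ERRFI1 (MIG6) binds the active kinase domain of EGFR and ERBB2 and blocks it. In the mammary gland the family drives ductal growth and alveolar development, and crosstalk between progestins and this family has long been studied in T47D cells.

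The 250 bases upstream of the RefSeq start sites of 4 members are shown. These are among the members that changed after R5020 in T47D-co: EGFR and ERRFI1 were higher, and ERBB2 and ERBB4 lower. Whether these windows have a part in that response was not tested. Sequences are 5′ to 3′ on the strand of the gene, from the RefSeq annotation of GRCh38.p14, while all other coordinates here are in the files' build, GRCh37 (hg19). Capitals mark matches to 2 of the motifs searched, all on either strand. One is the GC box, GGGCGG. The other is the hexamer TGTTCT, which PR and related steroid receptors bind.
EGFR, chr7:55018767-55019016, plus strand: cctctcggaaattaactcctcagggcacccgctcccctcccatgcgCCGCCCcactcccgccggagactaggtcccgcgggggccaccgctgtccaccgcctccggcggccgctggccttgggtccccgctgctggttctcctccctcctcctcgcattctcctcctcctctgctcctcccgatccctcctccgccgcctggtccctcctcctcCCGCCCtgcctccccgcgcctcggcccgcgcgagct
ERRFI1, chr1:8026310-8026559, minus strand: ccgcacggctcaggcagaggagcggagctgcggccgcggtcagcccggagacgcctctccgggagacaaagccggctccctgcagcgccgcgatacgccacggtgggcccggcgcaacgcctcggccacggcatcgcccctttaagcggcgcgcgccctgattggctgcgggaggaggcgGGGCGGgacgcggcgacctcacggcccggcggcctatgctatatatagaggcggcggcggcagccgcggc
ERBB2, chr17:39687844-39688093, plus strand: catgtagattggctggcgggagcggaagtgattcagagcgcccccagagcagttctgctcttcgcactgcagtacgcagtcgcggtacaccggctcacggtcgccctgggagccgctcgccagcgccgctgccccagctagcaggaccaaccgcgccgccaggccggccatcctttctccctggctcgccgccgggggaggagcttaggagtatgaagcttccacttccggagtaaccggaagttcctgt
ERBB4, chr2:212538803-212539052, minus strand: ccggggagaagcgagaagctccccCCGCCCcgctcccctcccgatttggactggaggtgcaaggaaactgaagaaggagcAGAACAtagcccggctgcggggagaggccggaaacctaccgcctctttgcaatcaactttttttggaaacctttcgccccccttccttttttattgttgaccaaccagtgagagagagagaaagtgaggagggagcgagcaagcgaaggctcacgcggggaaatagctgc
The EGFR window shown, 73.6% G or C, held 2 GC boxes, and the ERRFI1 window held 1. EGFR has another RefSeq start, whose window (chr7:55109589-55109838, 38.8% G or C) is not shown and held neither motif. ERBB4 had 1 GC box and 1 hexamer. The 1 ERBB2 window searched had neither motif. No other start of ERBB2 was searched, and which start these cells used was not tested, so this window may not be the promoter in use. Of 34943 RefSeq promoter windows of the same length, 42.5% held a GC box and 12.4% the hexamer. A window without a match says nothing about binding elsewhere in a locus.

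Depth was 14141308 to 33607504 estimated fragments per library (median 18385828). PGR, the gene of PR, ranged over 11800 to 28000 scaled fragments in T47D-co and 418 to 719 in T47D-Y, so it was low but present in the line labelled null. All 8 luminal epithelial markers were detected, with summed levels of 64400 to 101000 scaled fragments in T47D-co and 106000 to 115000 in T47D-Y, and the leukocyte gene PTPRC did not exceed 9.21 in any library. In 4 libraries, all given water, 1 merged mitochondrial row is listed at 0 (T47D-Y with EtOH replicate 1, T47D-Y with R5020 replicates 1 and 2, and T47D-co with EtOH replicate 2). Results that change without them are given both ways. Levels below are fragments scaled to a common library size, and differences are limma estimates ± SE on the log2(scaled fragments + 1) scale, and a row is called where its p, adjusted by Benjamini-Hochberg over the 20162 rows tested, is under 0.05. The deposited scale was set separately for each line and IFN state. A change on that scale between lines or IFN states includes this shift, common to all rows, and is no test of a member. All levels are RNA levels of whole cultures, in which fewer expressing cells and less RNA per cell cannot be told apart.

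R5020 changed the RNA of 8 of the 10 members in T47D-co given water. EGFR, the ligands TGFA, BTC and EREG, and the inhibitor ERRFI1 rose, while ERBB2, the ERBB3,PA2G4 row and ERBB4 fell. Over all rows tested 56.5% were called in this comparison (26.6% higher and 30% lower), so more rows were called than not, and the count of members alone does not set them apart. The median log2 difference was 0.75 over the members and -0.04 over all rows. With IFN 9 of 10 members were called, 6 higher and 3 lower, against 58.2% of all rows (27.5% higher and 30.6% lower). In T47D-Y, R5020 gave 1 call among the 10 members in each state, EGFR, against 0.218% of all rows with water (0.203% higher and 0.0149% lower) and 0.298% with IFN (0.263% higher and 0.0347% lower).

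**Figure D1:**
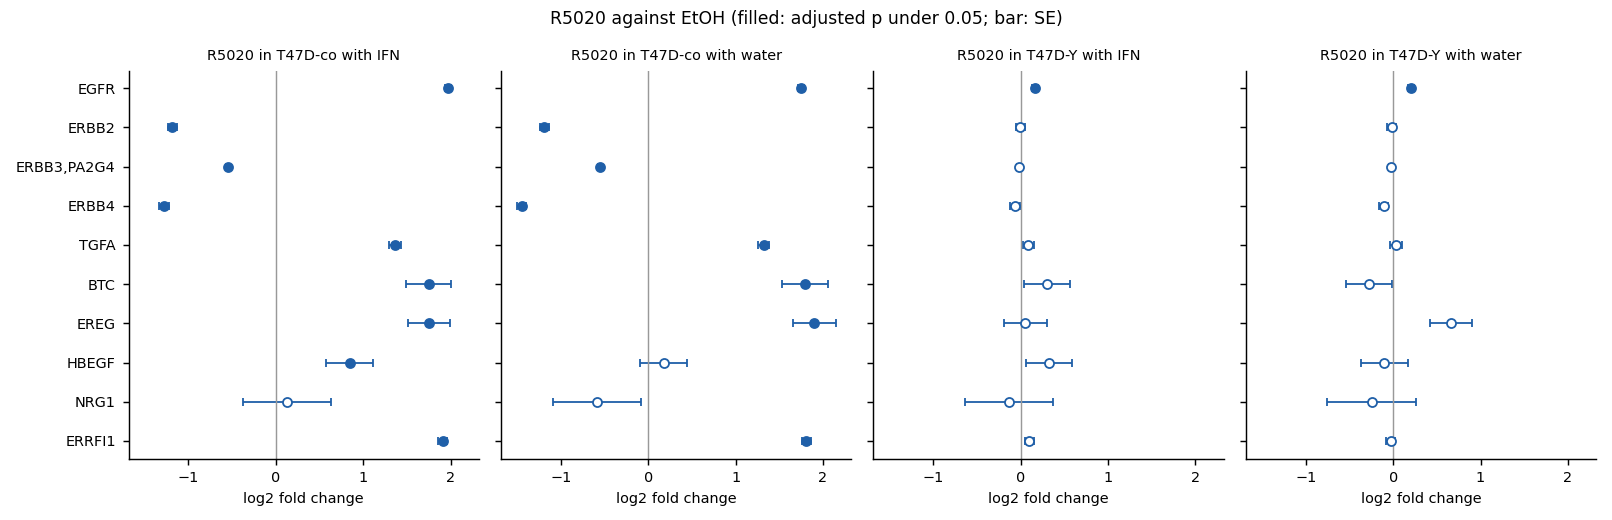
Difference between R5020 and EtOH for each member, as the limma log2 fold change (horizontal axis, no unit) with its SE, in T47D-co and T47D-Y with IFN or water (4 panels, 3 libraries per group); filled points have an adjusted p under 0.05. In T47D-co the points lie between -1.45 and 1.98, and in T47D-Y EGFR alone is filled, at 0.21 with water and 0.16 with IFN.

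EGFR was the receptor that rose. Its row (chromosome 7, 55086713 to 55324313, merged with the non-coding RP11-339F13.2, and with the antisense gene EGFR-AS1 at the same locus) had 4718, 4920 and 4963 scaled fragments in T47D-co given R5020 and water, against 1409, 1452 and 1493 with EtOH and water. With IFN it had 5125, 5310 and 5203 in R5020 libraries, against 1278, 1332 and 1364 in EtOH libraries. The 6 T47D-co libraries given R5020 lay far above every other library of the series. The log2 difference was 1.75 ± 0.03 with water (3.35-fold, limma, Benjamini-Hochberg adjusted p = 2.17e-23) and 1.98 ± 0.03 with IFN (3.93-fold, limma adjusted p = 1.68e-24).

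The EGFR difference in T47D-Y was small. T47D-Y libraries had 1417, 1382 and 1450 scaled fragments with R5020 and water, against 1249, 1185 and 1243 with EtOH and water. The IFN libraries had 1372, 1293 and 1340 with R5020, against 1197, 1192 and 1185 with EtOH. The groups did not overlap in either pair. The log2 difference was 0.21 ± 0.03 with water (limma adjusted p = 0.00293) and 0.16 ± 0.03 with IFN (limma adjusted p = 0.032). The call with water was lost when only the 2 groups were fitted (limma adjusted p = 0.115) and without the 4 libraries named above (limma adjusted p = 0.125). The call with IFN was lost in those 2 fits too (limma adjusted p = 0.568 and 0.0812), on the deposited scale (0.0531), without a variance trend (0.0696), without T47D-Y EtOH IFN replicate 1, 2 or 3 (0.0978, 0.108 and 0.116), and without T47D-Y R5020 IFN replicate 1 or 3 (0.236 and 0.102).

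ERBB2, the receptor amplified in a class of breast cancers, fell in T47D-co. The row (chromosome 17, 37827374 to 37887040, merged with MIR4728) shares its locus with PGAP3 and MIEN1. ERBB2 had 1515, 1631 and 1590 scaled fragments with R5020 and water, against 3691, 3545 and 3572 with EtOH and water. With IFN the values were 1519, 1426 and 1610 in R5020 libraries and 3436, 3664 and 3265 in EtOH libraries. All R5020 libraries lay below all EtOH libraries. The log2 difference of ERBB2 was -1.19 ± 0.05 both with water (limma adjusted p = 9.37e-17) and with IFN (limma adjusted p = 9.49e-17), a 2.28-fold lower level. T47D-Y libraries overlapped between R5020 and EtOH, and the difference with water was -0.02, with a 95% interval of -0.12 to 0.09.

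ERBB4, a receptor of neuregulins associated with differentiation of the mammary epithelium, fell most of the receptor rows. The row (chromosome 2, 212240445 to 213403565, merged with MIR548F2) had 5616, 5778 and 5403 scaled fragments in T47D-co with R5020 and water, against 15950, 15780 and 14220 with EtOH and water. With IFN it had 6303, 6690 and 6719 in R5020 libraries, against 16410, 15440 and 16010 in EtOH libraries. The R5020 and EtOH libraries stood far apart in both states. The log2 difference was -1.45 ± 0.05 with water (2.73-fold lower, limma adjusted p = 5.61e-18) and -1.28 ± 0.05 with IFN (2.43-fold lower, limma adjusted p = 7.21e-17). In T47D-Y the libraries overlapped, with a difference of -0.11 ± 0.05 with water (limma adjusted p = 1, unadjusted p = 0.0493).

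ERBB3, the kinase-impaired neuregulin receptor, could not be measured alone. Its row (chromosome 12, 56473640 to 56507691) sums ERBB3 with PA2G4, which encodes EBP1, a protein that binds ERBB3. The row had 6532, 6358 and 6529 scaled fragments in T47D-co with R5020 and water, against 9592, 9375 and 9446 with EtOH and water. R5020 libraries were all lower, by a log2 difference of -0.55 ± 0.02 with water (limma adjusted p = 1.15e-16) and -0.54 ± 0.02 with IFN (limma adjusted p = 1.35e-16). Which of the 2 genes moved cannot be told from this row. In T47D-Y with water the difference was -0.02 ± 0.02, with a 95% interval of -0.07 to 0.02.

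**Figure D2:**
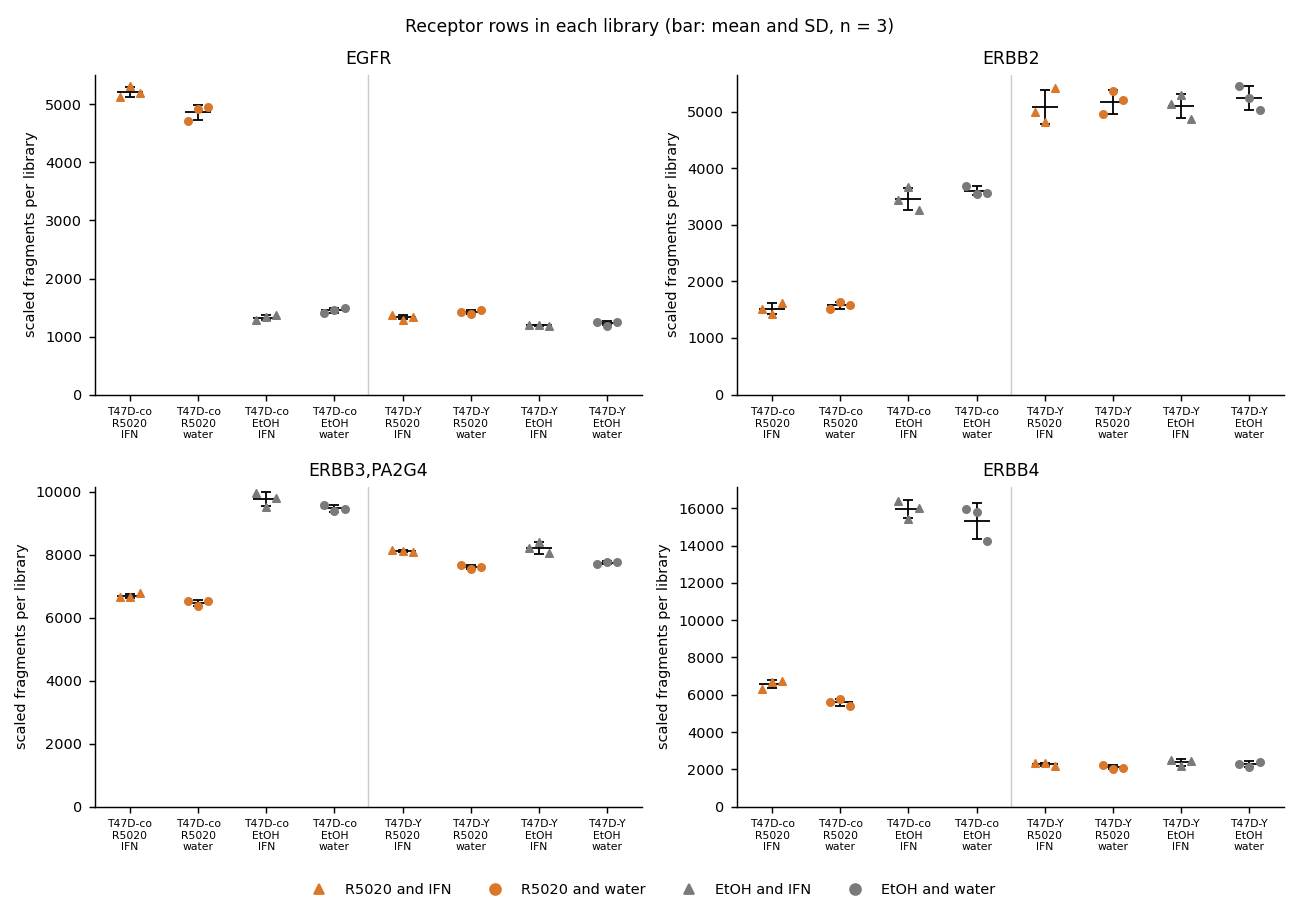
Level of the 4 receptor rows in each library (vertical axis: scaled fragments per library, linear, from 0), grouped by line, R5020 or EtOH and IFN or water; black bars give the mean and SD of 3 libraries. EGFR stands at 4718 to 5310 in the 6 T47D-co libraries given R5020 and at no more than 1493 elsewhere, while ERBB2 and ERBB4 are lower in these 6 than in T47D-co given EtOH.

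TGFA, a ligand of EGFR, rose in T47D-co. The row (chromosome 2, 70674411 to 70781325, merged with TGFA-IT1) had 658.1, 635.8 and 668.0 scaled fragments in T47D-co with R5020 and water, against 244.4, 250.5 and 289.2 with EtOH and water. All R5020 libraries were well above all EtOH libraries. The log2 difference was 1.32 ± 0.06 with water (2.5-fold, limma adjusted p = 1.93e-15) and 1.37 ± 0.06 with IFN (limma adjusted p = 9.76e-16).

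BTC (chromosome 4, 75669968 to 75719896), a ligand of EGFR and ERBB4, rose and was scarce in EtOH libraries. It had 120.6, 111.7 and 120.9 scaled fragments in T47D-co with R5020 and water, against 35.61, 32.11 and 32.26 with EtOH and water. With IFN it had 165.8, 114.5 and 128.7 in R5020 libraries, against 27.57, 37.23 and 59.28 in EtOH libraries. Neither pair overlapped, and the spread with IFN was wide. The log2 difference was 1.79 ± 0.26 with water (limma adjusted p = 1.81e-06) and 1.75 ± 0.26 with IFN (limma adjusted p = 2.56e-06).

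EREG (epiregulin, chromosome 4, 75230859 to 75254468) rose as well. It had 82.84, 81.46 and 67.58 scaled fragments in T47D-co with R5020 and water, against 17.32, 17.84 and 25.35 with EtOH and water. All R5020 libraries were higher, also with IFN. EREG differed in log2 by 1.90 ± 0.24 with water (limma adjusted p = 2.23e-07) and 1.76 ± 0.24 with IFN (limma adjusted p = 7.78e-07). BTC and EREG lie within 1 ligand cluster on chromosome 4 that also holds EPGN and AREG and spans 546 kb from the start of EPGN to the end of BTC.

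HBEGF and NRG1 were near the limit of detection. HBEGF (chromosome 5, 139712427 to 139726216), the heparin-binding ligand, had 22.09, 23.52 and 37.69 scaled fragments in T47D-co with R5020 and water, against 30.79, 17.84 and 24.19 with EtOH and water. These libraries overlapped, and the difference of 0.18 ± 0.27 was not called (limma adjusted p = 0.601, 95% interval -0.37 to 0.73). With IFN it had 39.78, 27.61 and 36.93 in R5020 libraries, against 16.54, 25.43 and 15.41 in EtOH libraries, with no overlap. That difference was called, at 0.85 ± 0.27 (limma adjusted p = 0.00887), but the change of the R5020 effect with IFN was not (0.67 ± 0.38, limma adjusted p = 0.41). NRG1, the main ligand of ERBB3 and ERBB4, is merged with 3 intronic transcripts on chromosome 8 (31496901 to 32622548) and ranged over 2.30 to 11.55 scaled fragments in the 24 libraries, with 10 or more in 4 of them. It was called in no comparison.

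ERRFI1 (chromosome 1, 8064463 to 8086368), the inhibitor of EGFR and ERBB2, rose by a fold near that of EGFR. It had 1165, 1072 and 1120 scaled fragments in T47D-co with R5020 and water, against 330.1, 311.2 and 314.5 with EtOH and water. With IFN it had 1337, 1361 and 1318 in R5020 libraries, against 380.5, 356.9 and 332.0 in EtOH libraries. The groups were widely separated in both states. On the log2 scale ERRFI1 differed by 1.81 ± 0.05 with water (3.5-fold, limma adjusted p = 2.96e-20) and 1.91 ± 0.05 with IFN (limma adjusted p = 8.91e-21). In T47D-Y the libraries overlapped, and the difference with water was -0.03 ± 0.05 (95% interval -0.13 to 0.08).

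**Figure D3:**
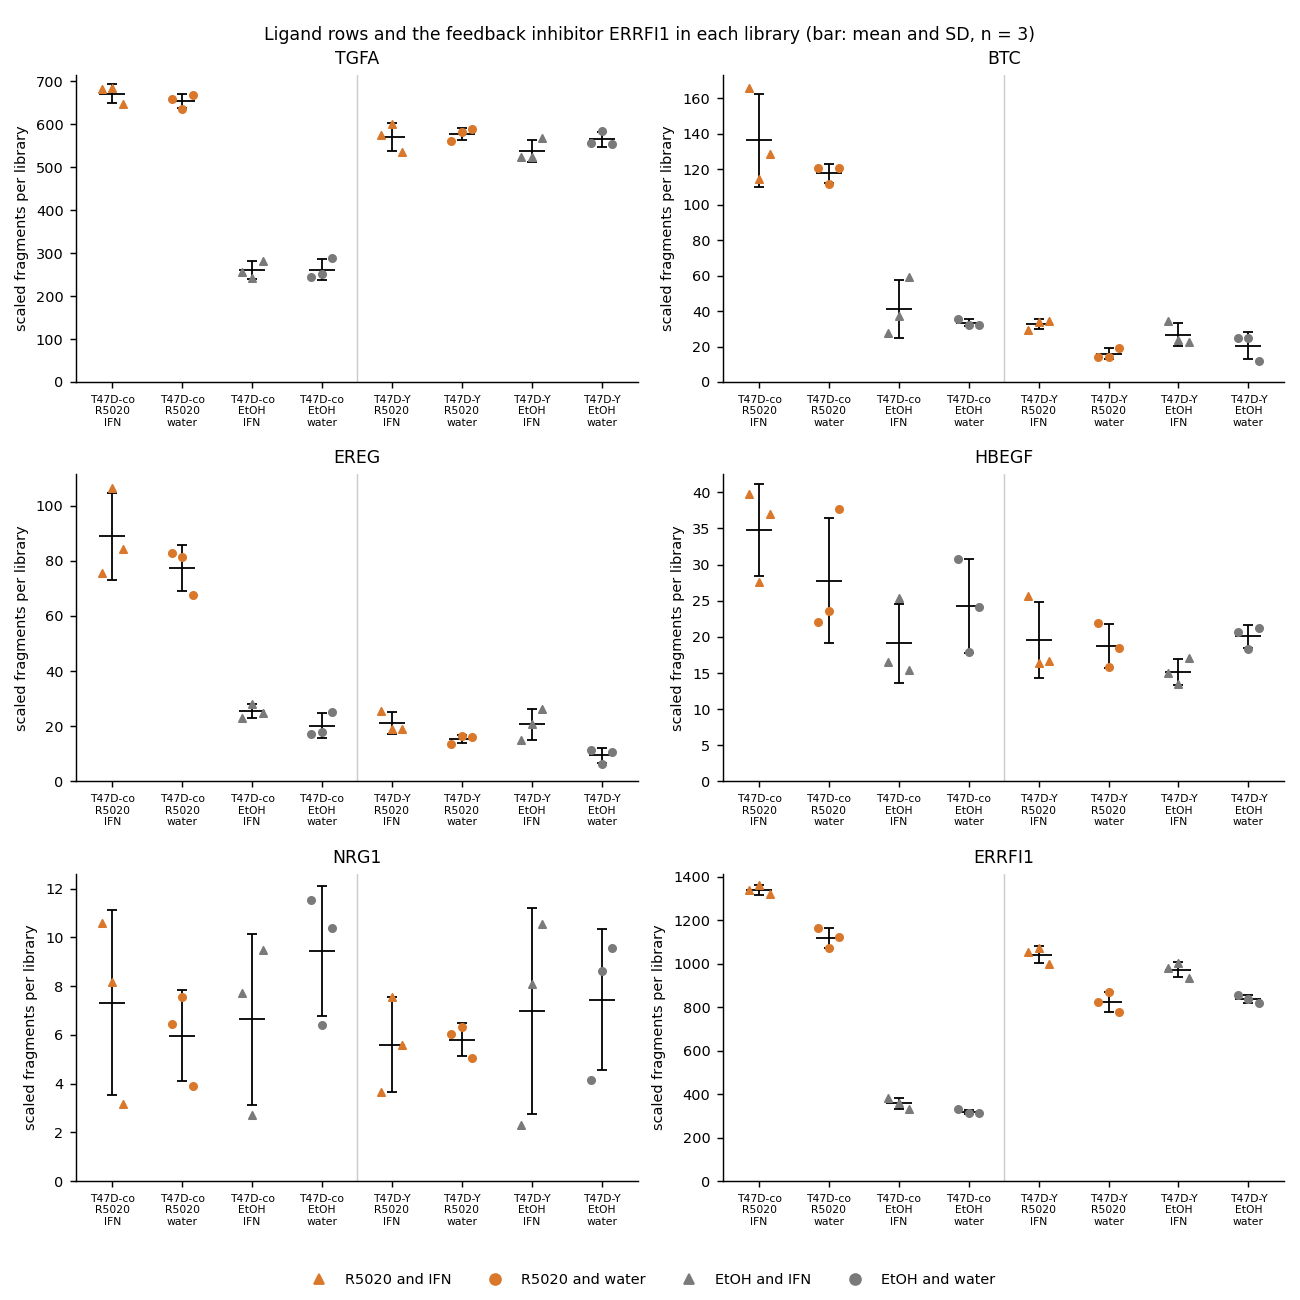
Level of the 5 ligand rows and of ERRFI1 in each library (vertical axes: scaled fragments per library, linear, from 0, with a different range in each panel), grouped by line, R5020 or EtOH and IFN or water; black bars give the mean and SD of 3 libraries. TGFA, BTC, EREG and ERRFI1 stand higher in T47D-co given R5020 than in T47D-co given EtOH, while HBEGF and NRG1 stay under 40 and 12.

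Between genes, levels were compared per kilobase of exon, with the length taken as the union of the GENCODE v29 exons of each gene. That union was 11.333 kb for EGFR, 12.14 for ERBB4 and 5.663 for ERBB2. The transcripts expressed may be shorter, so close ranks depend on this choice. The rows of EGFR, ERBB2, ERBB4, TGFA and NRG1 also include merged non-coding RNAs. The merged ERBB3 row was left out. In T47D-co given R5020 and water the order was ERBB4 (461.2 scaled fragments per kb), EGFR (429.4), ERBB2 (278.8), ERRFI1 (268.4), TGFA (136.3), BTC (41.8), EREG (16.73), HBEGF (11.64) and NRG1 (0.65). In T47D-co given EtOH and water it was ERBB4 (1262), ERBB2 (636.2), EGFR (128.1), ERRFI1 (76.4), TGFA (54.49), BTC (11.83), HBEGF (10.17), EREG (4.37) and NRG1 (1.03). EGFR thus stood above ERBB2 with R5020 and below it with EtOH. Neighbours whose libraries overlapped were ERBB2 with ERRFI1 and EREG with HBEGF in the R5020 group, and BTC with HBEGF in the EtOH group. In T47D-Y ERBB2 was the highest, at 914.5 per kb with R5020 and water and 925.7 with EtOH and water. ERRFI1 came next (197.1 and 200.8), then ERBB4 (173.9 and 187.7), whose libraries overlapped with those of ERRFI1 in the EtOH group.

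The size of the R5020 effect differed between the lines for 8 of 10 members with water and 8 of 10 with IFN. In each state 5 were positive and 3 negative. Over all rows 44.6% were called for this difference with water (21.6% positive and 23% negative) and 46% with IFN (22.9% positive and 23.1% negative). The excess of the T47D-co effect over the T47D-Y effect with water was 1.54 ± 0.05 for EGFR (limma adjusted p = 1.18e-18), 1.84 ± 0.07 for ERRFI1 (limma adjusted p = 8.02e-17) and -1.34 ± 0.08 for ERBB4 (limma adjusted p = 8.6e-14). For EREG it was 1.24 ± 0.34 (limma adjusted p = 0.00427), a call that was lost without the 4 libraries named above (0.96, limma adjusted p = 0.129). Values of all 8 are given among the results for a closer look. Among the basal markers, KRT5 had higher values with R5020 in T47D-co, and TP63 and ACTA2 lower ones, with no overlap and no test made. KRT5 was at 252 to 278 scaled fragments with R5020 and water, against 0 to 0.962 with EtOH and water. TP63 was at 10.9 to 15.6 with R5020 and water and 23 to 28.9 with EtOH and water, and ACTA2 at 337 to 365 with R5020 and 382 to 505 with EtOH. The 3 basal markers with a row summed to 607 to 630 and 412 to 528 in these groups, and the 8 luminal markers to 67600 to 69900 and 97500 to 98500. With IFN, KRT5 was at 199 to 261 with R5020 and 0 to 1.82 with EtOH, and the luminal sum at 64400 to 70000 and 96200 to 101000. The part of these markers in the changes of the members was not tested.

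Without R5020 the lines already differed. With EtOH and water 8 of 10 members were called between T47D-co and T47D-Y, 5 higher and 3 lower, against 63.1% of all rows (29.7% higher and 33.5% lower). ERBB4 showed the largest difference, with 15950, 15780 and 14220 scaled fragments in T47D-co, against 2292, 2127 and 2418 in T47D-Y. The libraries of the 2 lines were far apart, by 2.75 ± 0.05 on the log2 scale (6.72-fold, limma adjusted p = 8.34e-24). ERRFI1 was lower in T47D-co, at 330.1, 311.2 and 314.5, against 857.0, 837.8 and 817.0 in T47D-Y, by -1.39 ± 0.05 (limma adjusted p = 5.83e-18). TGFA was also lower, at 244.4, 250.5 and 289.2 in T47D-co, against 557.0, 585.1 and 553.2 in T47D-Y, and neither gene's libraries overlapped (TGFA -1.11 ± 0.06, limma adjusted p = 5.71e-14). ERBB2 differed by -0.54 ± 0.05 (limma adjusted p = 5.9e-10). Higher levels in T47D-co were called for EREG (1.02 ± 0.24, limma adjusted p = 0.000698), BTC (0.75 ± 0.26, limma adjusted p = 0.0146), the ERBB3,PA2G4 row (0.29 ± 0.02, limma adjusted p = 4.14e-11) and EGFR (0.24 ± 0.03, limma adjusted p = 1.1e-06). The calls of EGFR, the ERBB3,PA2G4 row and BTC were lost on the deposited scale (limma adjusted p = 0.825, 0.0587 and 0.0788), and that of BTC without T47D-Y EtOH water replicate 3 (0.163).

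With R5020 and water the line differences took another shape, and 8 of 10 members were called, 6 higher and 2 lower, against 68.5% of all rows (31.9% higher and 36.6% lower). EGFR was higher in T47D-co by 1.78 ± 0.03 (limma adjusted p = 6.2e-24), and ERBB2 lower by a difference of -1.71 ± 0.05 (limma adjusted p = 2.43e-20). ERRFI1, which was lower in T47D-co with EtOH, was higher with R5020, by 0.45 ± 0.05 (limma adjusted p = 2.61e-08). The ERBB3,PA2G4 row went the other way, with a difference of -0.24 ± 0.02 (limma adjusted p = 1.68e-09). TGFA stood near its T47D-Y level, at 653.9 ± 16.5 scaled fragments in T47D-co and 577.8 ± 14.2 in T47D-Y (SD, n = 3 each), a difference of 0.18 ± 0.06 (limma adjusted p = 0.0166). This TGFA call was lost without T47D-Y R5020 water replicate 1 (limma adjusted p = 0.0605), without T47D-co R5020 water replicate 3 (0.054), without the 4 libraries named above (0.204) and with upper-quartile scaling (0.0794), and its direction turned on the deposited scale (-0.03). With IFN, 9 of 10 members were called between the lines given R5020, 7 higher and 2 lower, against 68.3% of all rows (32.5% higher and 35.8% lower). Between the lines given EtOH and IFN 6 of 10 were called, 3 higher and 3 lower, against 62.6% (29.6% higher and 33% lower). BTC was not called between the lines given EtOH and IFN (0.57 ± 0.26, limma adjusted p = 0.0623), and was called without T47D-co EtOH IFN replicate 1 (limma adjusted p = 0.0129) or T47D-Y EtOH IFN replicate 1 (0.0249), with a pseudocount of 8 (0.0499), on the deposited scale (0.0413) and with quantile normalization (0.0139).

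The effect of IFN was compared with water in each line. In T47D-co given EtOH 0 of 10 members were called by limma, against 1% of all rows (0.57% higher and 0.432% lower), and 2 members (EGFR and ERRFI1) had an unadjusted p under 0.05. EGFR had 1278, 1332 and 1364 scaled fragments with IFN, against 1409, 1452 and 1493 with water. The libraries did not overlap, but the difference of -0.13 ± 0.03 missed the threshold (limma adjusted p = 0.0793). In T47D-co given R5020, ERRFI1 and ERBB4 were called, both higher with IFN, against 11.3% of all rows (7.57% higher and 3.69% lower). ERRFI1 had 1337, 1361 and 1318 scaled fragments with IFN, against 1165, 1072 and 1120 with water (0.26 ± 0.05, limma adjusted p = 0.00224). ERBB4 had 6303, 6690 and 6719 with IFN, against 5616, 5778 and 5403 with water (0.23 ± 0.05, limma adjusted p = 0.00652). For both genes the IFN and water libraries were separate. Both calls were lost on the deposited scale (limma adjusted p = 0.317 for ERRFI1 and 0.573 for ERBB4), and 5 abundant non-coding rows took 2.78 to 3.12% of the fragments in the R5020 and IFN libraries, against 3.92 to 4.28% in the R5020 and water libraries. The part of that shift was not tested.

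In T47D-Y 3 of 10 members were called with IFN in each state, all higher, against 4.44% of all rows with EtOH (2.5% higher and 1.93% lower) and 4.77% with R5020 (3.07% higher and 1.7% lower). ERRFI1 had 977.9, 1003 and 935.6 scaled fragments with EtOH and IFN, against 857.0, 837.8 and 817.0 with EtOH and water. With R5020 it had 1053, 1072 and 998.3 with IFN, against 822.7, 867.3 and 775.8 with water. The IFN libraries were higher in both pairs, by 0.22 ± 0.05 with EtOH (limma adjusted p = 0.0131) and 0.34 ± 0.05 with R5020 (limma adjusted p = 9.02e-05). The call with EtOH was lost without T47D-Y EtOH water replicate 3 (limma adjusted p = 0.0599) or T47D-Y EtOH IFN replicate 1 or 2 (0.051 and 0.0602). On the deposited scale both ERRFI1 differences changed direction, to -0.26 with EtOH and -0.14 with R5020. The T47D-Y blocks of that scale lie -0.206 (IFN) and 0.274 (water) from the common scale in log2, which moves all rows alike.

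The ligand calls with IFN in T47D-Y rested on few fragments. EREG had 14.96, 20.72 and 26.32 scaled fragments with EtOH and IFN, against 11.57, 6.453 and 10.64 with EtOH and water (1.04 ± 0.24, limma adjusted p = 0.011). The groups were separate by a narrow gap, and the call was lost without T47D-Y EtOH water replicate 2 (limma adjusted p = 0.0936) or T47D-Y EtOH IFN replicate 3 (0.0862), and with only the 2 groups fitted (0.149). BTC had 29.36, 33.97 and 34.58 with R5020 and IFN, against 14.33, 14.24 and 19.35 with R5020 and water (1.00 ± 0.26, limma adjusted p = 0.0253). Its call was lost without T47D-Y R5020 water replicate 1 or 2 (limma adjusted p = 0.081 and 0.108), without T47D-Y R5020 IFN replicate 1, 2 or 3 (0.0522, 0.0847 and 0.0679), without the 4 libraries named above (0.501) and on the deposited scale (0.07). The ERBB3,PA2G4 row differed by 0.08 ± 0.02 with EtOH (limma adjusted p = 0.0344) and 0.09 ± 0.02 with R5020 (limma adjusted p = 0.0203). For this row both calls were lost with upper-quartile scaling (limma adjusted p = 0.099 and 0.0597), without a variance trend (0.079 and 0.0549), with only the 2 groups fitted (0.171 and 0.104) and without the 4 libraries (0.173 and 0.304). The call with EtOH was also lost with quantile normalization (0.0587) and with all rows at the locus summed (0.112). Both directions turned on the deposited scale (-0.39 each). Single libraries ended them too: with EtOH, T47D-Y EtOH water replicate 1, 2 or 3 (0.115, 0.0804 and 0.0758) and T47D-Y EtOH IFN replicate 1 or 2 (0.094 and 0.136), and with R5020, T47D-Y R5020 water replicate 2 or 3 (0.0958 and 0.0682) and T47D-Y R5020 IFN replicate 1 or 2 (0.0759 and 0.0614).

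**Figure D4:**
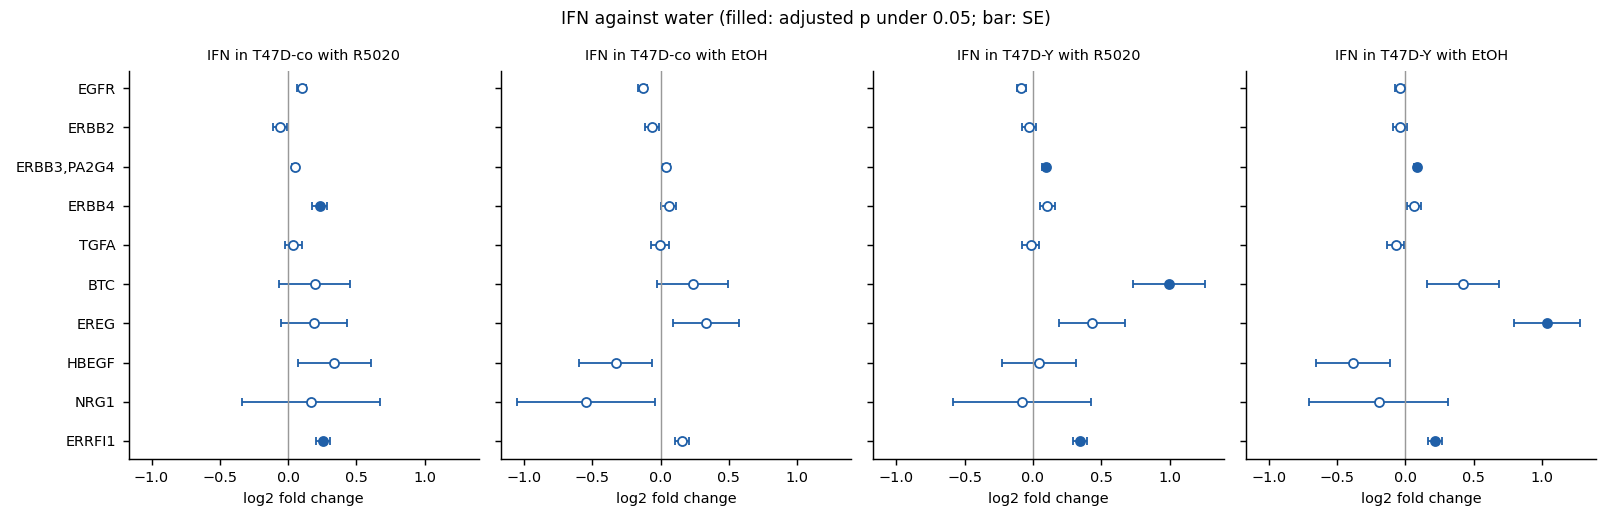
Difference between IFN and water for each member, as the limma log2 fold change (horizontal axis, no unit) with its SE, in T47D-co and T47D-Y given R5020 or EtOH (4 panels, 3 libraries per group); filled points have an adjusted p under 0.05. Filled points are ERBB4 and ERRFI1 in T47D-co with R5020, and ERRFI1, the ERBB3,PA2G4 row and BTC or EREG in T47D-Y.

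IFN altered the R5020 effect of 1 member in T47D-co, EGFR, against 1.01% of all rows (0.873% positive and 0.134% negative). The EGFR effect was larger with IFN by 0.23 ± 0.05 (limma adjusted p = 0.0219). That call was lost without T47D-co EtOH water replicate 3, T47D-co R5020 water replicate 1, T47D-co EtOH IFN replicate 1 or T47D-co R5020 IFN replicate 2 (limma adjusted p = 0.0554, 0.0731, 0.0657 and 0.0668). It was also lost with quantile normalization (0.111), with only the groups compared (0.0504), without a variance trend (0.0581) and without the 4 libraries (0.0712). In T47D-Y limma called 0 of 10 members and 0% of all rows for this interaction (694 rows at an unadjusted p under 0.05, and 0 members). The IFN effect with EtOH differed between the lines for 0 of 10 members, against 0.377% of all rows (0.0645% positive and 0.312% negative; 1555 rows at an unadjusted p under 0.05, and 0 members).

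The other ligands of the family were followed as a list of 6 genes. After R5020 in T47D-co with water 4 were higher and 1 lower, with a list median of 0.93 and a median of -0.04 over all rows. In this comparison 26.6% of all rows were higher and 30% lower, and the counts of the lists that follow are read against these shares. Over the 7 lists 72 of 93 tested genes were called (77.4%), against 56.5% of all rows. The lists were chosen with earlier results of these data known, so shares of calls in them are no test of the pathway. EGF, the founding ligand of EGFR, had 2049 ± 99.8 scaled fragments with R5020 and 620.5 ± 27.7 with EtOH (SD, n = 3 each), a difference of 1.72 ± 0.13 (limma adjusted p = 1.75e-11). EPGN (epigen), next to EREG on chromosome 4, had 160.3 ± 13.6 with R5020 and 64.86 ± 6.34 with EtOH (1.29 ± 0.15, limma adjusted p = 3.19e-08). NRG4, a ligand of ERBB4, rose by 0.44 ± 0.06 (limma adjusted p = 1.51e-06). AREG, which lies between EREG and BTC, had 28.11 ± 9.03 with R5020 and 18 ± 2.89 with EtOH and was not called (0.58 ± 0.32, limma adjusted p = 0.134). AREG has a near-identical copy in this genome build, so its value is uncertain. NRG2 and NRG3, both under 50 scaled fragments and named after their values were seen, differed by 2.55 ± 0.33 (limma adjusted p = 2.8e-07) and -1.05 ± 0.24 (limma adjusted p = 0.000567).

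Of 10 genes that shed or process the ligands, 2 were higher and 4 lower after R5020 in T47D-co with water, with a list median of -0.20. This share of called genes, 60%, is near the 56.5% of all rows. The main sheddases ADAM10 (0.03 ± 0.03, limma adjusted p = 0.492) and ADAM17 (0.08 ± 0.05, limma adjusted p = 0.171) were not called. RHBDF1 and RHBDF2 encode the iRhoms that carry ADAM17 to the cell surface. RHBDF1 fell by 0.77 on the log2 scale, to 1098 ± 20.5 scaled fragments with R5020, against 1868 ± 26.2 with EtOH (SD, n = 3 each, limma adjusted p = 5.59e-12). RHBDF2 had 428 ± 19.8 with R5020 and 323.1 ± 1.42 with EtOH and rose by 0.40 ± 0.09 (limma adjusted p = 0.000246). FURIN, a proprotein convertase, differed by -0.42 ± 0.06 (limma adjusted p = 4e-06), ADAM19 by -0.83 ± 0.24 (limma adjusted p = 0.00525), and the row of ADAM15, merged with DCST1, by 0.48 ± 0.06 (limma adjusted p = 3.73e-07).

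Adaptors and signal relay genes moved in both directions, with 16 of 34 higher and 11 lower and a list median of 0.08, against 26.6% of all rows higher and 30% lower. STAT5A, a transcription factor activated downstream of ERBB4 and of prolactin receptor, had 97.1 ± 17.1 scaled fragments with R5020 and 6.47 ± 1.93 with EtOH (3.73 ± 0.20, limma adjusted p = 1.37e-14). GAB2, a docking protein for PI3 kinase, had 1494 ± 55 and 369.4 ± 12.9 in the same groups (2.01 ± 0.04, limma adjusted p = 9.71e-23). PLCG1, phospholipase C gamma, differed by 1.28 ± 0.03 (limma adjusted p = 3.25e-21). VAV3, a guanine nucleotide exchange factor, had 1094 ± 15.7 with R5020 and 6549 ± 68.7 with EtOH (-2.58 ± 0.04, limma adjusted p = 1.89e-25). The PI3 kinase subunit PIK3R3 differed by -1.54 ± 0.04 (limma adjusted p = 2.2e-20), and the adaptor SHC3, at 14.56 ± 3.74 with R5020 and 70.51 ± 13.7 with EtOH, by -2.21 ± 0.18 (limma adjusted p = 6.52e-11). In the step between receptor and RAS, named here after their values were seen, the adaptor gene GRB2 rose by 0.94 ± 0.04 (limma adjusted p = 2.3e-16) and its partner SOS1 by 0.72 ± 0.04 (limma adjusted p = 3.05e-14). HRAS was not called (-0.14 ± 0.08, limma adjusted p = 0.177).

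Of 22 negative regulators 7 were higher and 11 lower, with a list median of -0.05, against 26.6% of all rows higher and 30% lower. LRIG1, a membrane protein that promotes turnover of ERBB receptors, had 10660 ± 233 scaled fragments with R5020 and 4851 ± 101 with EtOH (SD, n = 3 each), a difference of 1.14 ± 0.03 (limma adjusted p = 5.73e-21). SPRED1, an inhibitor of RAS signalling, differed by 1.33 ± 0.05 (limma adjusted p = 3.35e-17), and the ubiquitin ligase gene CBLB by 0.87 ± 0.06 (limma adjusted p = 1.23e-12). The ERK phosphatase gene DUSP5 fell by 3.37 on the log2 scale, to 71.05 ± 8.86 with R5020, against 740.9 ± 24.6 with EtOH (limma adjusted p = 1.44e-22). SPRY2 and SPRY1, which encode Sprouty inhibitors of RAS signalling, fell by 1.87 (limma adjusted p = 3.48e-15) and 1.41 (limma adjusted p = 1.83e-09). The ubiquitin ligase genes CBL (-0.20 ± 0.04, limma adjusted p = 0.000197) and CBLC (-0.51 ± 0.08, limma adjusted p = 2.05e-06), named after their values were seen, were lower, opposite to CBLB.

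Of 8 co-receptors and chaperones 6 were higher and 1 lower, with a list median of 0.22, against 26.6% of all rows higher and 30% lower. CD44, a hyaluronan receptor that binds ERBB2, had 3723 ± 147 scaled fragments with R5020 and 953.2 ± 62.6 with EtOH (1.97 ± 0.07, limma adjusted p = 3.04e-18), and PTK6 was lower (-0.48 ± 0.09, limma adjusted p = 0.000112). Of 7 tested transcripts that ERK signalling can induce, 3 were higher and 2 lower, against the same shares of all rows. CCND1, encoding cyclin D1, had 6626 ± 224 with R5020 and 1737 ± 17.4 with EtOH (1.93 ± 0.04, limma adjusted p = 9.35e-24), and PHLDA1 differed by -0.59 ± 0.13 (limma adjusted p = 0.000276). FOS, at 41.4 ± 4.34 with R5020 and 18.69 ± 3.89 with EtOH, and EGR1, at 8.37 ± 6.2 and 23.02 ± 4.25, were low in both groups. They passed the test in opposite directions and are named after their values were seen.

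The neighbours of ERBB2 on chromosome 17 are co-amplified with it in some breast cancers. Of 7 tested, 0 were higher and 5 lower, with a list median of -0.33, against 26.6% of all rows higher and 30% lower. GRB7, an adaptor that binds ERBB2 and is also in the relay list, had 126.3 ± 11.9 scaled fragments with R5020 and 261.9 ± 12.7 with EtOH (-1.05 ± 0.08, limma adjusted p = 8.13e-12). MIEN1 and PGAP3, whose rows share the locus of ERBB2, differed by -0.43 ± 0.08 (limma adjusted p = 4.18e-05) and -0.33 ± 0.10 (limma adjusted p = 0.00791). When all rows at that locus were summed, the ERBB2 difference was -1.05. In T47D-Y R5020 gave 0 calls by limma among the 93 list genes in either state, where the shares of all rows were 0.218% with water and 0.298% with IFN. At an unadjusted p under 0.05 there were 7 with water and 6 with IFN.

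**Figure D5:**
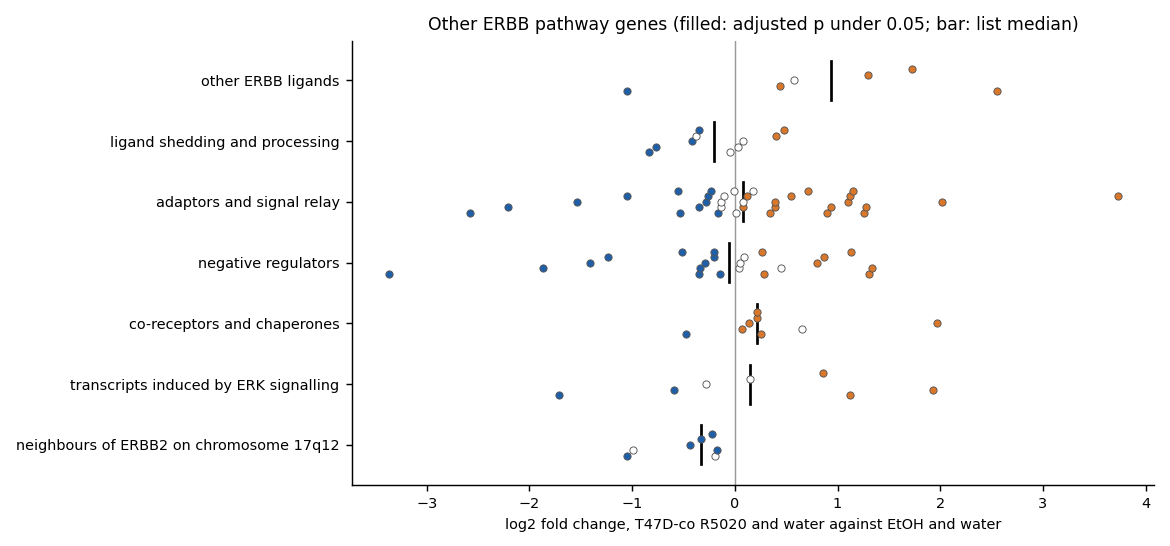
Difference between T47D-co given R5020 and water and T47D-co given EtOH and water for each tested gene of the 7 pathway lists (horizontal axis: limma log2 fold change, no unit; each point is 1 gene, filled where the adjusted p is under 0.05, orange higher and blue lower). Black bars are list medians, which run from -0.33 for the neighbours of ERBB2 to 0.93 for the other ERBB ligands.

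With IFN, R5020 in T47D-co changed the named genes as follows: STAT5A differed by 3.62 ± 0.20 (limma adjusted p = 2.36e-14), GAB2 by 2.26 ± 0.04 (limma adjusted p = 8.43e-24), DUSP5 by -3.41 ± 0.07 (limma adjusted p = 9.97e-23) and VAV3 by -2.38 ± 0.04 (limma adjusted p = 6.81e-25). Of these 4, GAB2 responded more to R5020 with IFN than with water, by 0.25 ± 0.06 (limma adjusted p = 0.0493), and the differences of the other 3 were not called. Over the lists 2 of 93 genes were called for this interaction, against 1.01% of all rows. The other was MUC4, named after its values were seen (-2.17 ± 0.49, limma adjusted p = 0.0292). IFN in T47D-co given EtOH gave 1 call among the 93 list genes, a share near the 1% of all rows. That gene was SPRED2 (0.23 ± 0.04, limma adjusted p = 0.00458). In T47D-co given R5020, 21 of the 93 were called with IFN, 15 higher and 6 lower. The share of all rows there was 11.3% (7.57% higher and 3.69% lower). In T47D-Y given EtOH 12 of 93 list genes were called with IFN, all higher, against 4.44% of all rows (2.5% higher). They were 5 adaptors, 6 negative regulators and 1 ERK-induced transcript. SPRED2 was among them (0.33 ± 0.04, limma adjusted p = 2.09e-05), and so was DUSP4 (0.59 ± 0.09, limma adjusted p = 0.000131). In T47D-Y given R5020, 12 of 93 were called with IFN, 11 higher and 1 lower, against 4.77% of all rows. The IFN effect with EtOH differed between the lines for 0 of the 93 list genes, against 0.377% of all rows.

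Between the lines given EtOH and water, several genes of the pathway differed more than any receptor. EGF had 620.5 ± 27.7 scaled fragments in T47D-co and 72.02 ± 0.91 in T47D-Y (3.09 ± 0.13, limma adjusted p = 9.85e-17). DUSP4, an ERK phosphatase gene, had 1082 ± 68.4 in T47D-co and 55.64 ± 3.48 in T47D-Y (4.26 ± 0.09, limma adjusted p = 6.96e-23), and LRIG3 had 8522 ± 406 and 495.2 ± 19.5 (4.10 ± 0.05, limma adjusted p = 7.34e-28). STAT5A and GAB2 were lower in T47D-co, by differences of -3.98 ± 0.20 and -2.88 ± 0.04 (limma adjusted p = 3.01e-15 and 5.72e-26). The ERK-induced ETV4 was lower as well (-1.65 ± 0.31, limma adjusted p = 4.92e-05), and CCND1 had 1737 ± 17.4 in T47D-co and 3574 ± 56.1 in T47D-Y (-1.04 ± 0.04, limma adjusted p = 2.61e-18). Both ETV4 and CCND1 differed less than ERBB4, the receptor with the largest difference (2.75).

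Rows whose group means ran most like those of each receptor were ranked by Pearson correlation over the 8 groups, among 3709 rows with a mean of at least 50 scaled fragments and a span of at least 1 on the log2 scale. The groups share libraries' line and treatment, so r describes the pattern and carries no test. Many rows came close to those named below. With r over 0.98 there were 188 rows for EGFR, 221 for ERBB2, 120 for ERBB4 and 16 for the ERBB3,PA2G4 row. EGFR was most like TIPARP (r = 0.9986), SLC15A2 (0.9983) and ZNF652 (0.9978), a pattern set by the 2 T47D-co groups given R5020 against the other 6. ERBB2 was most like TRERF1 (0.9994), CXXC4 (0.9993) and ROBO2 (0.9991). ERBB4 was most like LIPH (0.9995), KYNU (0.9992) and the non-coding RP4-660H19.1 (0.999). The ERBB3,PA2G4 row was most like MB21D2 (0.9972), OSGIN2 (0.9923) and the non-coding RP11-594C13.1 (0.9922).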

How the data were processed

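RNA of 24 human T47D-co and T47D-Y libraries was sequenced on an Illumina MiSeq, per the labels. TopHat2 2.0.12, Cufflinks 2.2.1 and GRCh37 (hg19) are named in the submitters' processing notes, and their parameters are not given in the sources used here. The authors deposited 1 table of expression signal with no unit in its header. Among rows that share a locus with no other row, 97.8 to 98.8% of a library's values fell on multiples of a common step (tolerance 0.05 steps), as fragments divided by a size factor would. Over all rows the share was 61.5 to 63.6%, so no count test was used. The deposited scale had been set separately for each line and IFN state, so the libraries were rescaled together by median of ratios over 14209 rows with a mean of at least 50 estimated fragments. Rows of neighbouring genes that share fragments cannot be separated, and use of strand is not given in the sources used here. One line without values and 25 rows with repeated names were left out.

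The 20162 rows that reached 10 scaled fragments in 3 or more libraries were fitted with limma 3.58.1 in R 4.3.3 on log2(scaled fragments + 1), with 8 group means and a variance trend (16 residual and 8.05 prior degrees of freedom). P-values were Benjamini-Hochberg adjusted over all rows in each comparison, and the fit was tested on simulated data. A fold change on this scale understates changes of scarce genes. The labels call the replicates biological. Replicate numbers did not pair libraries: same-number correlations of deviations were -0.056 to 0.056 over 12 comparisons. Tables and figures used Python 3.11.15, pandas 2.3.3, numpy 2.4.6 and matplotlib 3.10.9. The members and the lists were chosen with earlier results of these data known. Named list genes were, per list, up to 3 called rises and 3 called falls by size for R5020 in T47D-co with water and for the lines with EtOH and water, among rows with a group mean of at least 50 and libraries that did not overlap. Elsewhere at most 2 per direction were named, and 3 most similar rows per receptor. Alternatives were the deposited scale, quantile and upper-quartile scaling, pseudocounts of 0.25 and 8, filters, no variance trend, fits of only the groups compared, sums over a locus, a replicate block and leaving out each library. Some genes of the lists that enter the counts are not reported here by name.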

Additional observations from a re-analysis of the deposited data

Results flagged for a closer look

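The response to R5020 differed between T47D-co and T47D-Y for 8 members by a test of the difference itself (limma, Benjamini-Hochberg adjusted over all rows). The same test called 44.6% of all rows with water (21.6% positive and 23% negative) and 46% with IFN (22.9% positive and 23.1% negative). Such a difference is thus not particular to these members. With water the T47D-co response minus the T47D-Y response was 1.54 ± 0.05 on the log2 scale for EGFR (adjusted p = 1.18e-18), 1.84 ± 0.07 for ERRFI1 (adjusted p = 8.02e-17) and 1.29 ± 0.09 for TGFA (adjusted p = 7.54e-12). For the scarcer ligands it was 2.07 ± 0.37 for BTC (adjusted p = 4.76e-05) and 1.24 ± 0.34 for EREG (adjusted p = 0.00427). The EREG call was lost without the 4 libraries in which a mitochondrial row is listed at 0 (0.96, adjusted p = 0.129). It was negative for ERBB2 (-1.17 ± 0.07, adjusted p = 3.48e-13), ERBB4 (-1.34 ± 0.08, adjusted p = 8.6e-14) and the ERBB3,PA2G4 row (-0.52 ± 0.03, adjusted p = 7.86e-13).

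With IFN the same limma comparison gave 1.81 ± 0.05 for EGFR (adjusted p = 3.98e-20), 1.81 ± 0.07 for ERRFI1 (adjusted p = 9.78e-17) and 1.28 ± 0.09 for TGFA (adjusted p = 8.67e-12). BTC was at 1.45 ± 0.37 (adjusted p = 0.00215) and EREG at 1.70 ± 0.34 (adjusted p = 0.000199). ERBB2 was at -1.18 ± 0.07 (adjusted p = 2.93e-13), ERBB4 at -1.21 ± 0.08 (adjusted p = 5.74e-13) and the ERBB3,PA2G4 row at -0.53 ± 0.03 (adjusted p = 6.95e-13).

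The response of EGFR to R5020 in T47D-co differed between IFN and water by 0.23 ± 0.05 (limma adjusted p = 0.0219), a call that 4 single libraries end. Of all rows 1.01% were called for this interaction (0.873% positive and 0.134% negative).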

How the results depend on the processing

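Each member value called in a comparison was counted once under each alternative that applied to it. Of these counts, 854 kept direction and call under the alternatives other than leaving out 1 library, 31 lost the call and 5 changed direction. With 1 library left out, 521 kept both, 31 lost the call and 0 changed direction. The member calls after R5020 in T47D-co (8 with water and 9 with IFN) were as many in each leave-one-out fit. The fit with a replicate block also called 8 members for R5020 in T47D-co with water, and it changed no member call in any comparison.

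The deposited scale moved comparisons across the blocks it was set in, which lie -0.133 (T47D-co IFN), 0.051 (T47D-co water), -0.206 (T47D-Y IFN) and 0.274 (T47D-Y water) from the common scale in log2. Members called with IFN were then 4 in T47D-co with EtOH, against 0 on the common scale, 8 in T47D-Y with EtOH and 6 in T47D-Y with R5020, against 3 each. There were 5 between the lines with EtOH and water, against 8, 6 for the IFN effect between lines, against 0, and 0 for R5020 in T47D-Y with IFN, against 1. Differences that turned on that scale were, for IFN in T47D-co, the ERBB3,PA2G4 row (-0.14 with EtOH and -0.14 with R5020). For IFN in T47D-Y they were this row (-0.39 and -0.39), ERBB4 (-0.42 and -0.38) and ERRFI1 (-0.26 and -0.14), with EtOH first. TGFA between lines with R5020 and water became -0.033. The IFN effect between lines became 0.21 for EGFR, 0.27 for ERBB2, 0.26 for the ERBB3,PA2G4 row, 0.30 for ERBB4 and 0.24 for ERRFI1. All rows called with IFN were 8433 and 7201 in T47D-co (EtOH, R5020), against 202 and 2269, and 14730 and 14791 in T47D-Y, against 895 and 961. The IFN effect between lines gave 9531, against 76.

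The cause of the other changes was not tested. Members called for the R5020 by IFN interaction in T47D-co fell to 0, against 1, with quantile normalization, only the groups compared, no variance trend, or without the 4 libraries with a mitochondrial row at 0 (left out after seeing the data), with 67, 118, 59 and 63 rows called, against 203. For R5020 in T47D-Y, 0 members were called with only the groups compared or without the 4 libraries, in either IFN state, and 0 with IFN without a trend. All rows called there with only the groups compared were 27 with water and 15 with IFN, against 44 and 60, and 16 with water without the 4 libraries. For IFN in T47D-Y, 1 member was called with EtOH with only the groups compared, and 1 with R5020 without the 4 libraries. All rows called for IFN were 120 and 1362 in T47D-co (EtOH, R5020) and 634 in T47D-Y with R5020 with only the groups compared, 1402 in T47D-co with R5020 by quantile normalization, and 128, 514 and 325 in T47D-co with EtOH, T47D-Y with EtOH and T47D-Y with R5020 without the 4 libraries. With 1 library left out, members called ranged over 1 to 2 for IFN in T47D-Y with EtOH and 1 to 2 with R5020, 0 to 1 for R5020 in T47D-Y with IFN and 0 to 1 for the interaction in T47D-co. HBEGF between lines with R5020 and water was called by quantile normalization (limma adjusted p = 0.00683). Depth limits HBEGF, EREG, BTC in T47D-Y and NRG1, which had few fragments per library.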
